A study of Mus musculus with 12 samples.

Results

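Keratins are the intermediate filament proteins of epithelial cells, and 10 keratin genes were followed here through the mammary glands and tumors of Brca1-deficient mice. The members were chosen by name: the luminal or simple-epithelium keratins Krt7, Krt8, Krt18 and Krt19, the basal or stratified keratins Krt5, Krt14, Krt17, Krt15 and Krt6a, and Krt23. They are 10 of the 21743 genes in the table, which also holds 19 other keratin genes. The rule itself uses no measured value. A keratin filament is built from pairs of an acidic type I chain (Krt14, Krt15, Krt17, Krt18, Krt19 and Krt23) and a basic type II chain (Krt5, Krt6a, Krt7 and Krt8). In the mammary gland Krt8 and Krt18 are the classical pair of luminal cells, usually with Krt7 and Krt19, whereas Krt5 and Krt14 are the pair of the outer basal (myoepithelial) layer. Krt6a and Krt17 are keratins of hair follicles and of wounded or stressed stratified epithelium, and Krt15 is a keratin of the basal layer of stratified epithelia. Keratin filaments are anchored at desmosomes and hemidesmosomes by plakin and plakoglobin proteins, and loss of keratins with a gain of vimentin is a classical feature of epithelial-mesenchymal transition.

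Drop-seq, which captures single cells in droplets and counts the 3′ ends of their RNA by unique molecular identifiers (UMIs), was applied to 12 libraries of 2 mice of mixed C57BL/6 and 129/Sv strain. Mouse X2265 (mouse 1 below) gave the fourth mammary glands called MG1 (2 libraries) and the mammary tumor MT1 (5 libraries), and mouse X738 (mouse 2) gave the glands MG2 (2 libraries) and the tumor MT2 (3 libraries). Every library, gland or tumor, came from a mouse with MMTV-Cre, a Cre active in mammary epithelium, and floxed Brca1 on both alleles, so there was no wild-type library and the glands are those of tumor-bearing mice whose age the labels do not give. Before capture, blood and endothelial cells had been depleted to enrich Lin- epithelial cells. The replicates are libraries of 1 tissue of 1 mouse, and their p-values cover the spread between these libraries, which may be technical, and not the spread between mice.

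The table held 21157 cells, with 693333 to 14841414 UMIs per library and a median of 1784 to 4842 UMIs per cell. Cells were clustered without any keratin gene, and 12 clusters were found. The glands held luminal secretory-like, luminal hormone-sensing-like and basal-like cells. MT1 held mainly the epithelial-like clusters 3 (3470 MT1 cells) and 4 (2459 MT1 cells) and the unnamed Vim-high cluster 5 (1349 MT1 cells), and MT2 held the unnamed clusters 1 (6147 cells) and 2 (3628 cells). Library sums were made over the 20037 cells outside the stromal clusters (1120 cells of fibroblast, endothelial or immune character), called non-stromal below. Summed CPM (UMIs scaled to a common library total) of 10 epithelial markers other than keratins was 5493 to 5788 in MG1, 5544 to 5740 in MG2, 2968 to 3651 in MT1 and 13.6 to 30.99 in MT2, so the non-stromal cells of MT2 nearly lacked these markers. A list of 9 mesenchymal genes ran from 1372 to 2525 CPM in MT1 and from 7157 to 7571 CPM in MT2, against 305 to 515 CPM in the glands. The 9 fibroblast genes ran from 3326 to 3766 CPM in the non-stromal cells of MT2. They were at 472 to 728 CPM in MG1, 317 to 337 in MG2 and 337 to 461 in MT1. The word non-stromal thus names the clusters left out and does not show that the MT2 cells are epithelial. Brca1 itself, at 0 CPM in both MG1 libraries, reached 1.92 and 2.59 CPM in MG2, 7.81 to 16.5 in MT1 and 9.06 to 11.7 in MT2, but counts of 3′ ends give no check of the deletion. MG1 replicate 2 had only 71 non-stromal cells and is the thinnest library behind every MG1 value.

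The type II members and Krt18 lie in the keratin cluster of chromosome 15 and the other type I members in that of chromosome 11 (GRCm38, GENCODE M21). All 10 are annotated as protein-coding genes. The type II genes are Krt7 at chr15:101411043-101430313 (plus strand), Krt6a at chr15:101689910-101694307 (minus), Krt5 at chr15:101707070-101712898 (minus) and Krt8 at chr15:101996698-102004482 (minus), with the type I gene Krt18 close by at chr15:102028180-102032027 (plus). The remaining type I genes are all on the minus strand, with Krt23 at chr11:99477974-99493137, Krt15 at chr11:100131758-100135928, Krt19 at chr11:100140810-100148665, Krt14 at chr11:100203162-100207548 and Krt17 at chr11:100256217-100261029. Krt8 and Krt18, the pair with the highest levels in every library, are thus neighbours on opposite strands.

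Because all 10 members moved together between the tumors (below), their core promoters are shown for reading side by side. RefSeq promoter entries (GRCm38.p6) matched 6 of the 10 members, and 5 are printed as 100 bases, 70 before and 30 from the RefSeq start, 5′ to 3′ on the gene's strand. The Krt14 entry starts at an internal transcript of the gene and is not shown, the RefSeq starts of Krt8, Krt7, Krt18 and Krt23 lie inside the GENCODE genes, and Krt19, Krt17, Krt15 and Krt6a had no entry. Capitals mark the TATA-type words TATAAA and ATAAAA, searched on both strands, so that overlapping matches join into a longer run in Krt8. Krt8 is at chr15:102004313-102004412 (minus), Krt18 at chr15:102028146-102028245 (plus), Krt7 at chr15:101412333-101412432 (plus), Krt5 at chr15:101712876-101712975 (minus) and Krt23 at chr11:99493091-99493190 (minus).
Krt8: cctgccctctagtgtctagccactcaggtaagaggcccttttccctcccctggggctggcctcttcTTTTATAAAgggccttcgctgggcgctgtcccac
Krt18: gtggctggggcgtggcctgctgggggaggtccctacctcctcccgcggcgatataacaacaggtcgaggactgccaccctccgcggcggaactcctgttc
Krt7: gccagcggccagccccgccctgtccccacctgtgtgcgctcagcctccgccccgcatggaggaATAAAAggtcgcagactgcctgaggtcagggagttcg
Krt5: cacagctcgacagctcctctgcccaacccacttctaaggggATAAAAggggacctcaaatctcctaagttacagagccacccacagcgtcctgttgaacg
Krt23: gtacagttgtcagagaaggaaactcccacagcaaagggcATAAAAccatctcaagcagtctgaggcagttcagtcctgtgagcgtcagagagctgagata
Of these promoters, those of Krt8, Krt7, Krt5 and Krt23 hold a match and that of Krt18 holds none of these letters in this window. The first marked base lies 4, 7, 29 and 31 bases before the RefSeq start in Krt8, Krt7, Krt5 and Krt23, so the matches do not share a position. The whole Krt7 window lies inside the GENCODE gene, which starts at chr15:101411043. Among all 32851 promoter entries, windows of the same length hold TATAAA in 5.23%, ATAAAA in 6.51% and either word in 9.45%. A match is a description of the letters only.

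The comparison of each tumor with the gland of the same mouse asks how keratin RNA differs after tumor formation. In mouse 1 the tumor had less Krt8 and Krt19 and far less Krt5 and Krt15 than the gland, had more Krt23, and had Krt18 and Krt7 at levels that overlapped the gland. In mouse 2 the tumor had less of every member, and 3 members were at 0 UMIs in all 3 libraries. Of the 10 members, edgeR called 6 lower and 1 higher in MT1 than in MG1, where 27.1% of all 13654 genes tested were called lower and 32.2% higher. It called 10 of 10 lower in MT2 than in MG2, against 34.3% of all genes called lower and 32.7% called higher. All 10 members passed the low-count filter. The median log2 fold change of the members was -0.70 for MT1 against MG1 and -7.17 for MT2 against MG2, beside 0.11 and -0.05 for all genes tested. Setting the 3 members with 0 UMIs in MT2 to their lower bound left the second median at -7.17.

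Among the luminal keratins, Krt8 was at 4849 and 3452 CPM in MG1, at 2858 and 2649 in MG2, at 2056, 2746, 2411, 2333 and 2133 in MT1 and at 294, 329 and 331 in MT2. All tumor libraries lay below the gland libraries of the same mouse. Krt8 fell by 0.83 on the log2 scale in mouse 1 (SE 0.16, edgeR adjusted p 2.76e-04) and by 3.11 in mouse 2 (SE 0.19, adjusted p 5.98e-11). Krt18, the type I partner of Krt8, was at 3827 and 1998 CPM in MG1, at 2563 and 2122 in MG2, at 2557, 3068, 2682, 2758 and 2190 in MT1 and at 371, 555 and 461 in MT2. The MT1 libraries fell between the 2 MG1 libraries, and the test did not call this difference (log2 fold change -0.14, SE 0.22, adjusted p 0.597). Krt18 did fall in mouse 2, by 2.34 on the log2 scale (SE 0.24, adjusted p 8.90e-08). Leaving out MG1 replicate 2, where Krt18 was lowest, gave -0.51 in mouse 1 with a call (adjusted p 0.0343), and leaving out MG1 replicate 1 gave 0.52 without a call (adjusted p 0.0568), so that the sign of the log2 fold change of Krt18, MT1 against MG1, depends on which MG1 library is used.

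Krt19, the smallest type I keratin and a luminal keratin in the gland, was at 1753 and 1813 CPM in MG1, at 1472 and 1630 in MG2, at 326, 468, 431, 450 and 307 in MT1 and at 1.03, 1.07 and 1.73 in MT2. It fell in both tumors, by 2.17 on the log2 scale in mouse 1 (SE 0.17, edgeR adjusted p 1.46e-08) and by 10.23 in mouse 2 (SE 0.28, adjusted p 6.88e-15). Krt7, a type II keratin of simple epithelia, was at 334 and 326 CPM in MG1, at 293 and 230 in MG2, at 290, 401, 393, 382 and 305 in MT1 and at 1.84, 3.13 and 1.73 in MT2. MT1 overlapped MG1 (log2 fold change 0.10, SE 0.18, adjusted p 0.650), and in mouse 2 Krt7 fell by 6.86 (SE 0.24, adjusted p 8.30e-14). The 4 luminal keratins of MT2 were therefore not reduced to the same level: 294 to 555 CPM remained for Krt8 and Krt18, and 1.03 to 3.13 CPM for Krt7 and Krt19.

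Among the basal keratins, Krt5 was at 41.6 and 46.6 CPM in MG1, at 53.9 and 37.2 in MG2, at 2.35, 1.57, 4.53, 0.587 and 0.582 in MT1 and at 0 UMIs in every MT2 library. In mouse 1 it fell by 4.33 on the log2 scale (SE 0.43, edgeR adjusted p 5.24e-07). In mouse 2 it was at least 598-fold lower in the tumor, with the limit of a 0 set at 3 counts over the group (0.0762 CPM) (adjusted p 3.95e-10). Krt14, its type I partner, was at 138 and 164 CPM in MG1, at 179 and 171 in MG2, at 126, 133, 133, 99.3 and 119 in MT1 and at 2.43, 4.12 and 2.52 in MT2. The MT1 libraries all lay below MG1, but the difference was not called (log2 fold change -0.29, SE 0.18, adjusted p 0.170), and in mouse 2 Krt14 fell by 5.85 (SE 0.21, adjusted p 1.13e-13). MT1 therefore held Krt14 RNA at close to the gland level with about 2 CPM of Krt5.

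Krt17 was at 99.1 and 193 CPM in MG1, at 161 and 154 in MG2, at 44.1, 34.1, 47.2, 56.0 and 46.3 in MT1 and at 0.958, 1.45 and 0.157 in MT2. It fell by 1.58 on the log2 scale in mouse 1 (SE 0.27, edgeR adjusted p 7.61e-05) and by 7.48 in mouse 2 (SE 0.37, adjusted p 4.02e-12). Basal-like cells, which carried most Krt5 and Krt14 UMIs of the glands, made up 15.6% and 18.3% of the non-stromal cells in MG1, 10.6% and 9.96% in MG2, 0% to 0.0978% in MT1 and 0% in MT2. The summed level of 8 basal markers that are no keratins moved in the same way, from 476 to 587 CPM in MG1 and 469 to 483 in MG2 to 27.3 to 34.2 in MT1 (Oxtr at 0) and 24.2 to 26.6 in MT2 (Oxtr and Actg2 at 0). With the basal-like cluster left out of every library, a comparison added after the data had been seen, Krt14 was higher in MT1 than in MG1 (log2 fold change 1.24, SE 0.23, adjusted p 2.02e-04), as was Krt17 (0.87, SE 0.31, adjusted p 0.0217), and Krt5 was lower by a log2 fold change of -1.88 (SE 0.74, adjusted p 0.0393). The direction for Krt14 and Krt17 in mouse 1 thus changed with the gland cells it was compared with, and 3 rather than 1 of the members were called higher.

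Krt15 was at 201 and 268 CPM in MG1, at 30.4 and 31.5 in MG2, at 7.64, 56.5, 12.8, 12.9 and 18.3 in MT1 and at 0 UMIs in MT2. The glands of the 2 mice did not overlap, and MT1 replicate 2 stood above the other MT1 libraries. Krt15 fell by 3.46 on the log2 scale in mouse 1 (SE 0.42, edgeR adjusted p 4.14e-06) and was at least 407-fold lower in MT2 than in MG2 (adjusted p 2.08e-07). Krt6a was at 114 and 119 CPM in MG1, at 34.004 and 18.8 in MG2, at 87.0, 94.1, 71.6, 55.0 and 87.4 in MT1 and at 0 UMIs in MT2. The log2 fold change of Krt6a, MT1 against MG1, was -0.57 (SE 0.23, adjusted p 0.0422). Without MG1 replicate 1 it missed the threshold (adjusted p 0.216), and so it did without MG1 replicate 2 (0.0893), MT1 replicate 3 (0.0779) or MT1 replicate 4 (0.0738). In mouse 2 it was at least 347-fold lower in the tumor (adjusted p 1.30e-10).

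Krt23, an acidic keratin known from stress and inflammation of simple epithelia, was at 10.4 and 3.45 CPM in MG1, at 6.70 and 8.94 in MG2, at 115, 122, 108, 123 and 106 in MT1 and at 0.221, 0.0763 and 0 in MT2. It was the only member called higher in a tumor than in its gland in the fit of all non-stromal cells. It rose by 3.71 on the log2 scale in mouse 1 (SE 0.29, edgeR adjusted p 1.38e-08) and fell by 6.00 in mouse 2 (SE 0.45, adjusted p 1.67e-09). The MT2 value rests on 4 UMIs and the MG1 value on 27 UMIs, of which 2 are from MG1 replicate 2. With single libraries left out, the log2 fold change in mouse 1 ran from 3.48 to 5.16.

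**Figure D1:**
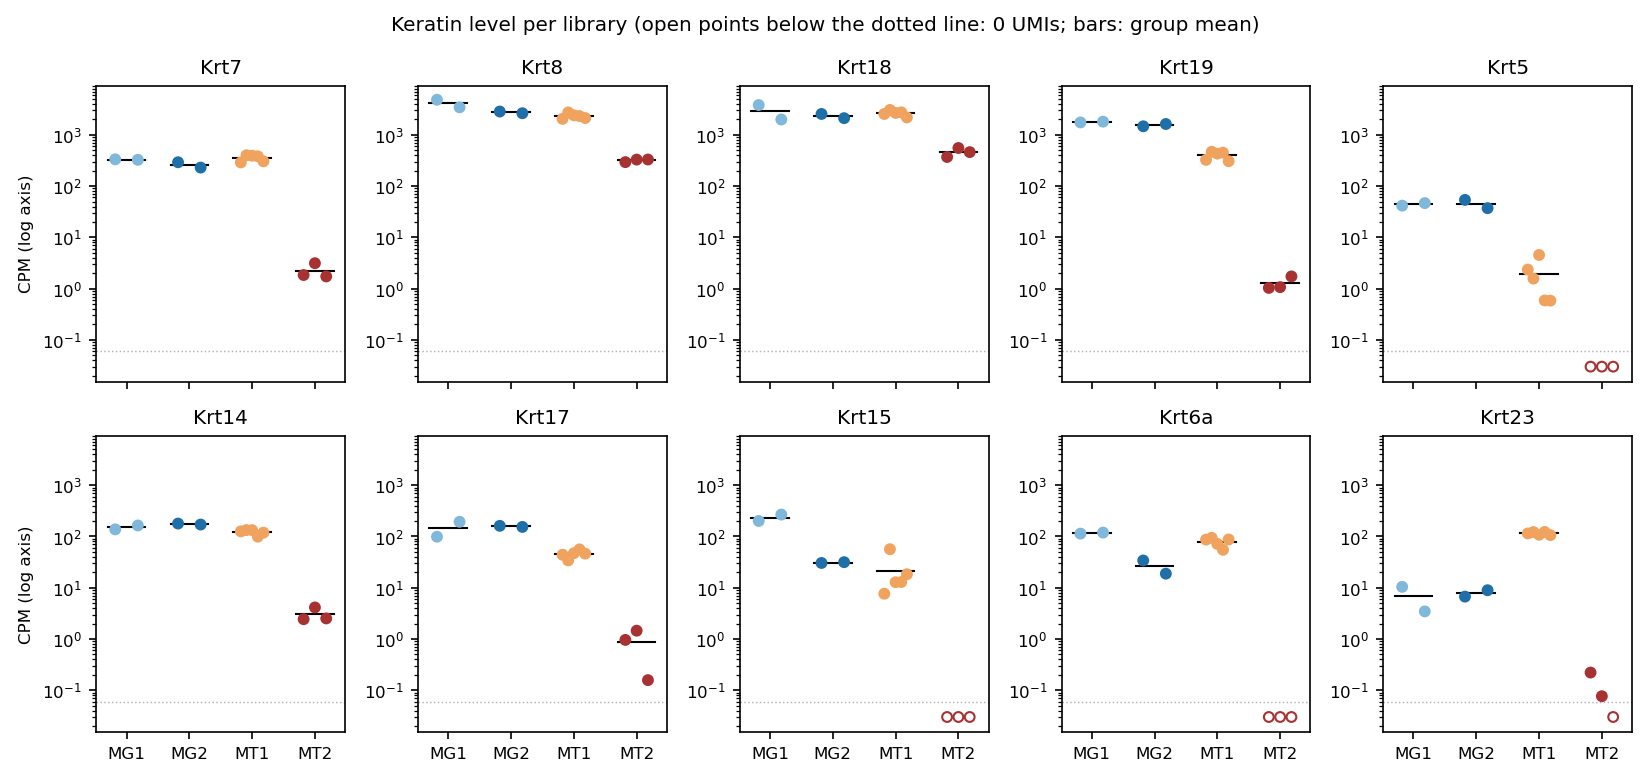
CPM (log axis) of each keratin in each library of MG1, MG2, MT1 and MT2, 1 panel per gene, with a bar at the group mean and open points for libraries at 0 UMIs. The MT2 points lie below the MG2 points for every gene, and for Krt23 the MT1 points (106 to 123 CPM) lie above all gland points (3.45 to 10.4 CPM).

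The tumors were also compared with each other and the changes of the mice were tested against each other, in the same fit and hence with the same libraries as above. The difference between the changes (MT1 against MG1 minus MT2 against MG2) was positive and called for 10 of 10 members, where 26.4% of all genes tested were called higher and 17% lower in this contrast. It was smallest for Krt18 (2.20 on the log2 scale, edgeR adjusted p 3.30e-05) and Krt8 (2.28, adjusted p 8.98e-07) and was 8.06 for Krt19 (adjusted p 4.54e-12) and 9.70 for Krt23 (adjusted p 9.23e-11). For Krt5, Krt15 and Krt6a, with 0 UMIs in MT2, the fitted size is no bound, but the difference was called (adjusted p 2.28e-04, 1.70e-03 and 1.30e-08). Directly between the tumors, 10 of 10 members were higher in MT1, with 35.3% of all genes called higher and 33.1% lower. The log2 fold change of MT1 against MT2 was 2.88 for Krt8, 2.52 for Krt18, 5.32 for Krt14, 5.70 for Krt17, 7.30 for Krt7, 8.26 for Krt19 and 9.87 for Krt23. For Krt5, Krt15 and Krt6a MT1 was at least 25.3-fold, 284-fold and 1038-fold higher. The bounds use the MT1 mean, which 1 library raised for Krt5 (MT1 replicate 3, 4.53 CPM, the others 0.582 to 2.35). For Krt15 it was MT1 replicate 2 (56.5 CPM, the others 7.64 to 18.3).

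With the mouse as replicate, that is 4 sums with gland and tumor paired by animal, edgeR called 0 of 10 members and 0% of 14948 genes in either direction, with 2214 genes and 1 member at an unadjusted p under 0.05. The member was Krt5, with a log2 fold change of -6.90 (SE 2.40, unadjusted p 0.0480, adjusted p 0.336). Krt8 had -1.97 (SE 0.73, adjusted p 0.341) and Krt23 had -0.85 (SE 4.93, adjusted p 0.941). Of the members, 8 were lower in the tumor library sums of both mice by their fitted values, Krt23 differed in sign between the mice and so did Krt7, whose value in mouse 1 was not called.

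**Figure D2:**
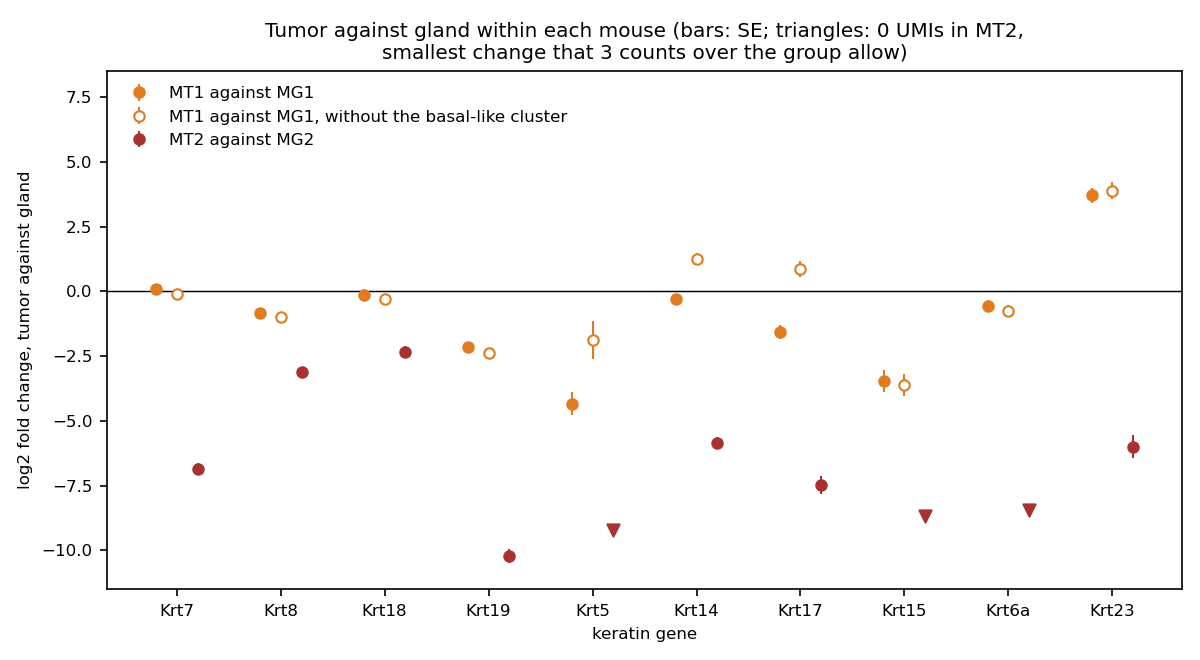
Log2 fold change of tumor against gland for each keratin, with bars for the SE of the edgeR fit, for MT1 against MG1 (filled), the same without the basal-like cluster (open) and MT2 against MG2. Triangles mark the lower bounds of Krt5, Krt15 and Krt6a, which had 0 UMIs in MT2, and Krt14 and Krt17 change side of 0 in mouse 1 when the basal-like cluster is left out (1.24 and 0.87).

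By marker-defined cell type the keratins described the gland lineages, although no keratin had been used to form or name the clusters. The levels in this and the next paragraphs are CPM within a cluster, not TMM-scaled, and are descriptions with no test. In basal-like cells Krt14 reached 881 CPM in MG1 and 1536 in MG2, Krt17 897 and 1464, and Krt5 335 and 450. The same cells also held Krt8 at 1017 and 781 CPM and Krt18 at 524 and 339 CPM. Fibroblast-like cells of MG1 and MG2 had Krt8 at 670 and 326 CPM and Krt18 at 604 and 290 CPM. Endothelial-like cells had Krt8 at 696 and 347 CPM and Krt18 at 739 and 270 CPM. Krt18 in the basal-like cells of MG1 was thus not above the stromal level. Of all Krt14 UMIs, 62.1% in MG1 and 58.0% in MG2 lay in basal-like cells, and of all Krt5 UMIs 79.1% and 65.9%. Luminal secretory-like cells, the milk-producing lineage, had the highest Krt8 of the gland clusters (5587 and 3360 CPM) and Krt18 at 4656 and 2659 CPM, with Krt19 at 1040 and 1194 CPM and Krt7 at only 103 and 153 CPM. Luminal hormone-sensing-like cells had more Krt19 (2583 and 2466 CPM) and more Krt7 (521 and 463 CPM) beside Krt8 at 4129 and 2962 CPM.

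Krt6a in the glands was highest in the hormone-sensing-like cells, and Krt15 was highest there in MG1 and in the basal-like cells in MG2. Krt6a was at 217 CPM in the hormone-sensing-like cells of MG1 and 42.4 CPM in those of MG2, against 6.32 and 8.43 CPM in the basal-like cells. Krt15 was at 384 and 42.1 CPM in the hormone-sensing-like and at 78.96 and 113 CPM in the basal-like cells. The hormone-sensing-like cells held 95.4% of the Krt6a UMIs and 90.4% of the Krt15 UMIs of MG1, and 67.3% and 55.8% of those of MG2, where secretory-like cells held 30.04% of the Krt6a UMIs (67 UMIs in 9 of 923 cells) and basal-like cells 25.1% of the Krt15 UMIs. A Krt6a UMI was found in 35.4% of the MG1 and 8.24% of the MG2 hormone-sensing-like cells, at a median depth of 4444.5 and 2572.5 UMIs per cell, and in 3.97% and 0% of the fibroblast-like cells, at 3222.5 and 2036.5 UMIs. Within the hormone-sensing-like cells Krt6a was at 214 and 233 CPM in the MG1 libraries and at 50.9 and 33.5 CPM in the MG2 libraries, which do not overlap. The difference between the glands in this cell type was not tested.

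Clusters 3 and 4 of MT1 differed in Krt8, Krt19, Krt23 and, of the basal or stratified set, only in Krt14. Cluster 4 had Krt8 at 3135 ± 224 CPM (SD, n = 5 libraries) and cluster 3 at 2345 ± 210. Krt19 was at 770 ± 104 CPM in cluster 4 and at 200.2 ± 32.0 in cluster 3, and in all 5 libraries the level in cluster 4 was the higher. Krt14 had the opposite order, with 187 ± 24.5 CPM in cluster 3 and 69.8 ± 21.9 in cluster 4, and so did Krt23, with 175 ± 12.9 and 91.2 ± 8.34. In each library the cluster 3 level of Krt14 (153.9 to 212.2 CPM) was above every cluster 4 level (39.4 to 94.3 CPM). Cluster 3 held 69.1% of the Krt14 UMIs and 69.8% of the Krt23 UMIs of MT1, and cluster 4 held 60.8% of the Krt19 UMIs. Krt17 overlapped between the clusters, at 28.6 to 59.8 CPM per library in cluster 3 and 48.5 to 90.7 CPM in cluster 4, and so did Krt6a, at 62.6 to 114 CPM and 4.78 to 131 CPM. Krt15 (6.58 to 10.1 and 1.19 to 8.13 CPM) and Krt5 (0 to 4.08 and 0 to 12.9 CPM) overlapped as well.

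The Vim-high cluster 5 of MT1 had less of the keratins, with Krt8 at 840 ± 44.3 CPM, Krt18 at 749 ± 114 CPM, Krt14 at 40.5 ± 10.9 CPM and Krt23 at 17.0 ± 7.41 CPM. These Krt8 levels (792 to 887 CPM per library) were near those of the fibroblast-like cells of the same tumor (466 to 859 CPM in 4 libraries), at a median depth of 2328 and 1911 UMIs per cell. They were below those of its endothelial-like cells, which had Krt8 at 1428 and 1534 CPM and Krt18 at 1647 and 1879 CPM in 2 libraries. The 64 hormone-sensing-like cells of MT1 stood apart from the tumor clusters in Krt19, Krt7 and Krt15, but not in Krt6a, which was higher in cluster 12 (706 CPM). They had Krt19 at 4612 CPM, Krt7 at 1026, Krt15 at 1546 and Krt6a at 595, all on pooled counts, and they held 247 of the 368 Krt15 UMIs of MT1 (67.1%). A single cell held 73 Krt15 UMIs. In MT1 replicate 3, the library that held 20 of these cells, Krt15 was at 740 CPM and Krt6a at 684 CPM. Most Krt15 of MT1 thus lay in a few cells that carry the markers of a gland lineage.

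In clusters 1 and 2 of MT2, Krt8 and Krt18 were the only members above 10 CPM. Krt8 was at 301 and 305 CPM in clusters 1 and 2 and Krt18 at 417 and 472 CPM, with Krt14 at 2.06 ± 0.870 and 2.43 ± 0.898 CPM (SD over 3 libraries), above the simple keratins Krt7 (0.804 ± 0.318 and 1.18 ± 0.586 CPM) and Krt19 (1.02 ± 0.274 and 0.644 ± 0.259 CPM). Stromal cells of the same tumor had Krt8 too, at 72.8, 155 and 66.1 CPM in the fibroblast-like cells of the 3 libraries and at 24.6, 138 and 163 CPM in the immune-like cells. In each library clusters 1 and 2 (278 to 325 CPM) were above the stromal cells. How much of the stromal level is RNA free in the droplets was not tested.

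**Figure D3:**
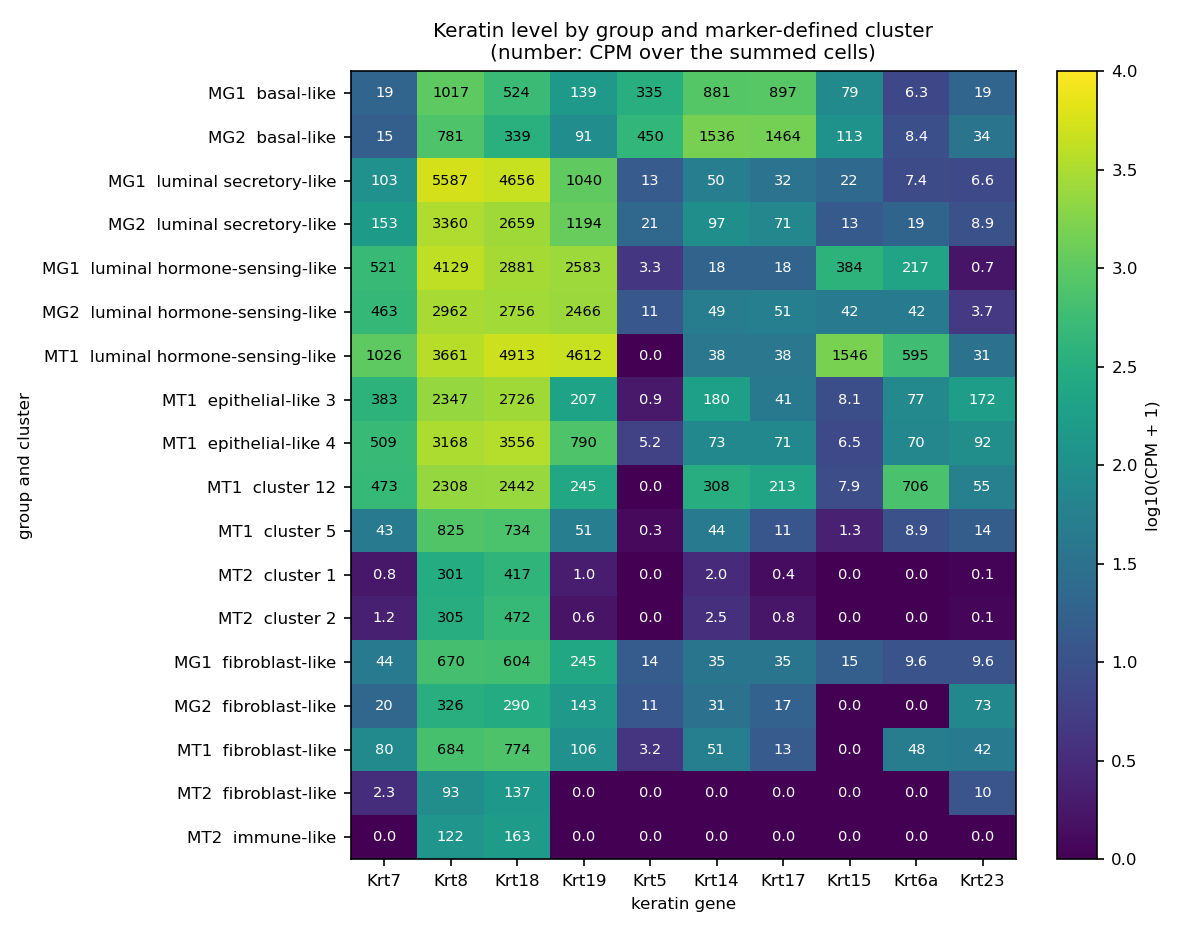
CPM of each keratin (columns) in most clusters of each group (rows, endothelial-like cells not shown), printed in the cells and coloured as log10(CPM + 1), from pooled counts. The Krt14, Krt17 and Krt5 columns peak in the basal-like rows of the glands, Krt6a among gland rows peaks in the hormone-sensing-like rows, and the rows of MT2 are dark for most genes other than Krt8 and Krt18.

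Whether luminal and basal or stratified keratins occur in the same cell was examined in MT1 and set beside the glands. A cell was counted if it had at least 1 UMI of Krt7, Krt8, Krt18 or Krt19 and at least 1 UMI of Krt5, Krt14, Krt17, Krt15 or Krt6a, after each cell had been thinned to 800 UMIs to remove depth differences (0 cells were shallower). The share of such cells among non-stromal cells was 9.38%, 8.05%, 9.30%, 9.20% and 7.86% in the MT1 libraries and 0.0403%, 0.170% and 0.191% in the MT2 libraries. It was 16.1% and 32.4% in MG1 and 11.3% in both MG2 libraries. Without thinning it was 39.1% and 70.4% in MG1, 26.3% and 27.0% in MG2, 15.6% to 21.4% in MT1 and 0.743% to 1.05% in MT2. MT1 lay above MT2 by 8.62 percentage points (exact two-sided permutation p 0.0179, Benjamini-Hochberg 0.0536 over 3 comparisons) and below MG1 by a difference of -15.5 points (exact permutation p 0.0476, adjusted 0.0714), and MT2 differed from MG2 by -11.2 points (exact permutation p 0.1, adjusted 0.1). Each raw p is the smallest that its design allows, so with these numbers of libraries no comparison could pass 0.05 after adjustment. In each the libraries did not overlap. The MG1 mean rests on 2 unlike libraries: with MG1 replicate 1 left out MT1 lay below by -23.6 points, and with MG1 replicate 2 left out by -7.35. Requiring 2 UMIs of each set gave 4.70% and 9.86% in MG1, 3.76% and 3.93% in MG2, 2.48% to 3.17% in MT1 and 0% to 0.0383% in MT2.

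The gland cells behind these shares were of several kinds. Basal-like cells had both sets in 36.8% of the cells in MG1 and 35.9% in MG2, hormone-sensing-like cells in 20.5% and 9.98%, and secretory-like cells in 7.89% and 6.93%. As a background, all stromal cells had both in 1.32% in MG1 (2 of 151 cells) and 1.33% in MG2 (3 of 226 cells). A luminal keratin was found in 64.2% and 43.3% of the basal-like cells but also in 50% and 23.5% of the fibroblast-like cells of these glands. In the tumor MT1 the share was 10.9% of cluster 3 (Clopper-Pearson 95% interval 9.85% to 11.9%) and 7.89% of cluster 4 (6.85% to 9.03%). It was 37.5% of the 64 hormone-sensing-like cells (24 cells, 25.7% to 50.5%) and 3.34% of cluster 5 (2.44% to 4.44%). The fibroblast-like cells of MT1, which should lack both sets, had it in 6 of 136 cells, 4.41% (1.64% to 9.36%), at a median depth of 1911 UMIs, against 2096.5 in cluster 3 and 2050 in cluster 4. In the endothelial-like cells it was 5 of 94, 5.32% (1.75% to 11.98%), at a median of 1933 UMIs. The cluster 3 share lay above the interval of the fibroblast-like but within that of the endothelial-like cells, and that of cluster 4 lay within both. With at least 2 UMIs of the basal or stratified set, cluster 3 had 3.95% (3.32% to 4.65%), cluster 4 2.56% (1.97% to 3.27%) and the fibroblast-like cells 0.735% (0.0186% to 4.03%) and the endothelial-like cells 3.19% (0.663% to 9.04%), intervals that include both cluster values. Over all 232 stromal cells of MT1 the share was 4.74% (11 cells, 2.39% to 8.33%), an interval that lies below the cluster 3 share and includes that of cluster 4. With at least 2 UMIs it was 1.72% (4 cells, 0.472% to 4.36%), which includes both. All intervals cover counting error only.

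The same background was read for single keratins in all 232 stromal cells of MT1, at a median of 1909 UMIs per cell. At 800 UMIs a Krt8 UMI was found in 32.8% of the stromal cells and in 73.4% and 83.5% of clusters 3 and 4. Krt14 was found in 3.88% of the stromal cells (1.79% to 7.24%), in 7.78% of cluster 3 (6.91% to 8.72%) and in 3.78% of cluster 4 (3.06% to 4.61%), so that Krt14 detection in cluster 4 was not above background. Without thinning, 5.60% of the stromal cells and 12.1% of all non-stromal MT1 cells had a Krt14 UMI. Krt23 was found in 3.45% of the stromal cells (1.5003% to 6.68%) and in 12.6% and 6.59% of clusters 3 and 4, of which only the cluster 3 share is above that interval. Krt6a was found in 0.862% of the stromal cells (0.105% to 3.08%) and in 2.16% and 1.71% of clusters 3 and 4, which lie within that interval. Krt17 was found in 2.59% of the stromal cells (0.955% to 5.54%) and in 2.91% and 3.78% of clusters 3 and 4, which also lie within their interval.

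**Figure D4:**
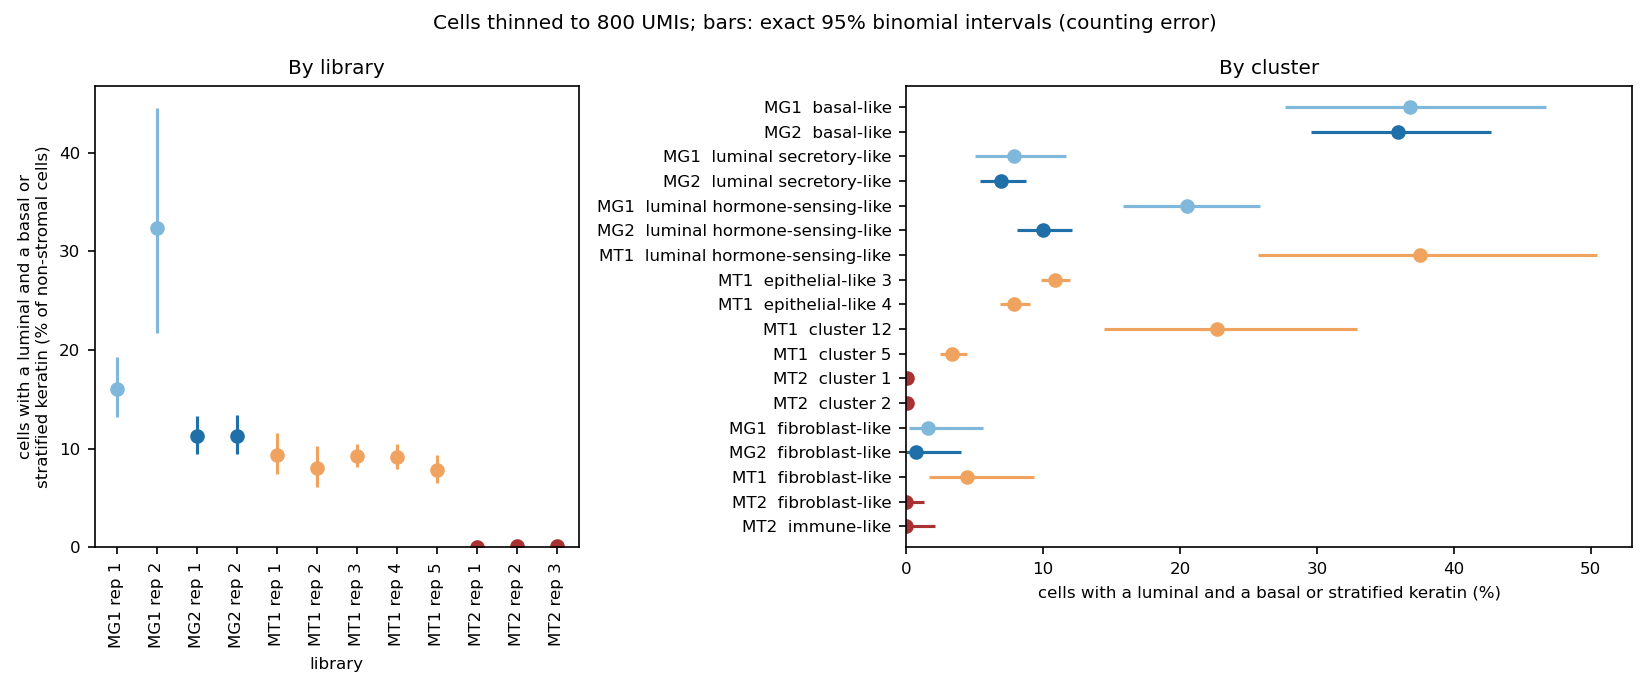
Percentage of cells with at least 1 UMI of a luminal and of a basal or stratified keratin at 800 UMIs per cell, by library (left, among non-stromal cells) and by group and cluster (right, endothelial-like cells not shown), with exact 95% binomial intervals. The MT1 libraries lie between 7.86% and 9.38%, MT2 near 0, and the fibroblast-like cells of MT1 at 4.41%.

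In MT1 the basal or stratified keratins were carried by few cells, whereas the luminal ones were spread. Krt8 and Krt18 each had a UMI in 90.02% and 90.04% of the 7458 non-stromal cells, Krt7 in 47.0%, Krt19 in 37.8% and Krt23 in 20.5%, without thinning. Krt14 had one in 12.1%, Krt17 in 5.95%, Krt6a in 3.47%, Krt15 in 1.61% and Krt5 in 0.268%. In the stromal cells of MT1 the unthinned shares were 4.31% for Krt17 and 2.59% for Krt6a. The 75 cells richest in a gene held 6.23% of the Krt8 UMIs and 14.8% of the Krt23 UMIs, but 40.5% of those of Krt14, 47.6% of Krt17, 80.4% of Krt6a and 87.8% of Krt15. Of the 42 Krt5 UMIs of MT1, 21 came from 1 cell, and 109 cells had 5 or more Krt14 UMIs.

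Pairs of keratins were counted in the 6017 MT1 cells of clusters 3, 4 and 12 at 800 UMIs. Of the 369 cells with Krt14, 81.3% had Krt8, 81.6% had Krt18 and 42.0% had Krt7, but 1.08% (4 cells) had Krt5. In the basal-like cells of the glands, 33.7% of the 178 cells with Krt14 had Krt5 and 39.3% had Krt8. Cells without Krt14 had Krt8 in 77.3% in the tumor and in 44.1% in the gland basal-like cells, and Krt18 in 81.7% in the tumor. The shares beside Krt14 were thus near those of the other cells, for Krt8 in both sets and for Krt18 in the tumor. By tumor library, Krt14 was found in 8.46%, 5.32%, 6.70%, 5.64% and 6.70% of the cells with Krt8. It was found in 6.88%, 1.64%, 5.48%, 4.03% and 6.29% of those without Krt8, the lower share in every library. Krt7 was found in 26.3% of the tumor cells without Krt14. Of the 129 cells with Krt6a, 48.8% had Krt14, 25.6% had Krt17 and 53.5% had Krt7. Per library, Krt14 was found in 56.2%, 62.5%, 42.6%, 48.5% and 52.0% of the cells with Krt6a and in 6.78%, 3.81%, 5.56%, 4.41% and 5.59% of those without it. Every library had the higher share among cells with Krt6a, although the cells with Krt6a numbered only 16, 8, 47, 33 and 25.

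Krt17 was also more frequent in cells with Krt14. It was found in 10.0% to 17.2% of the cells with Krt14 and in 2.45% to 3.34% of those without it over the 5 libraries. In gland basal-like cells 65.2% of the cells with Krt14 had Krt17. Krt14 and Krt17 are alike in sequence near their 3′ ends, where the counts are made, since 17.2% of the 31-base words in the last 500 bases of each transcript occur in the other, and how the counting divided such reads is not stated. Krt14 and Krt17 also each shared 25 of 470 words with Krt16. Of the words of Krt18 and Krt7, 10.4% and 9.04% occurred in other genes. Krt6a shared no such word with another gene. Krt14 was found in 8.82%, 8.20%, 7.18%, 4.71% and 7.48% of the cells with Krt23 and in 7.96%, 4.18%, 6.35%, 5.37% and 6.51% of those without it, a higher share in 4 of 5 libraries, on 5 to 14 cells per library. Krt18, the luminal partner of Krt8, was found in 85.2% to 86.3% of the cells with Krt8 and in 62.9% to 71.9% of those without it. Doublets were not removed from these counts.

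**Figure D5:**
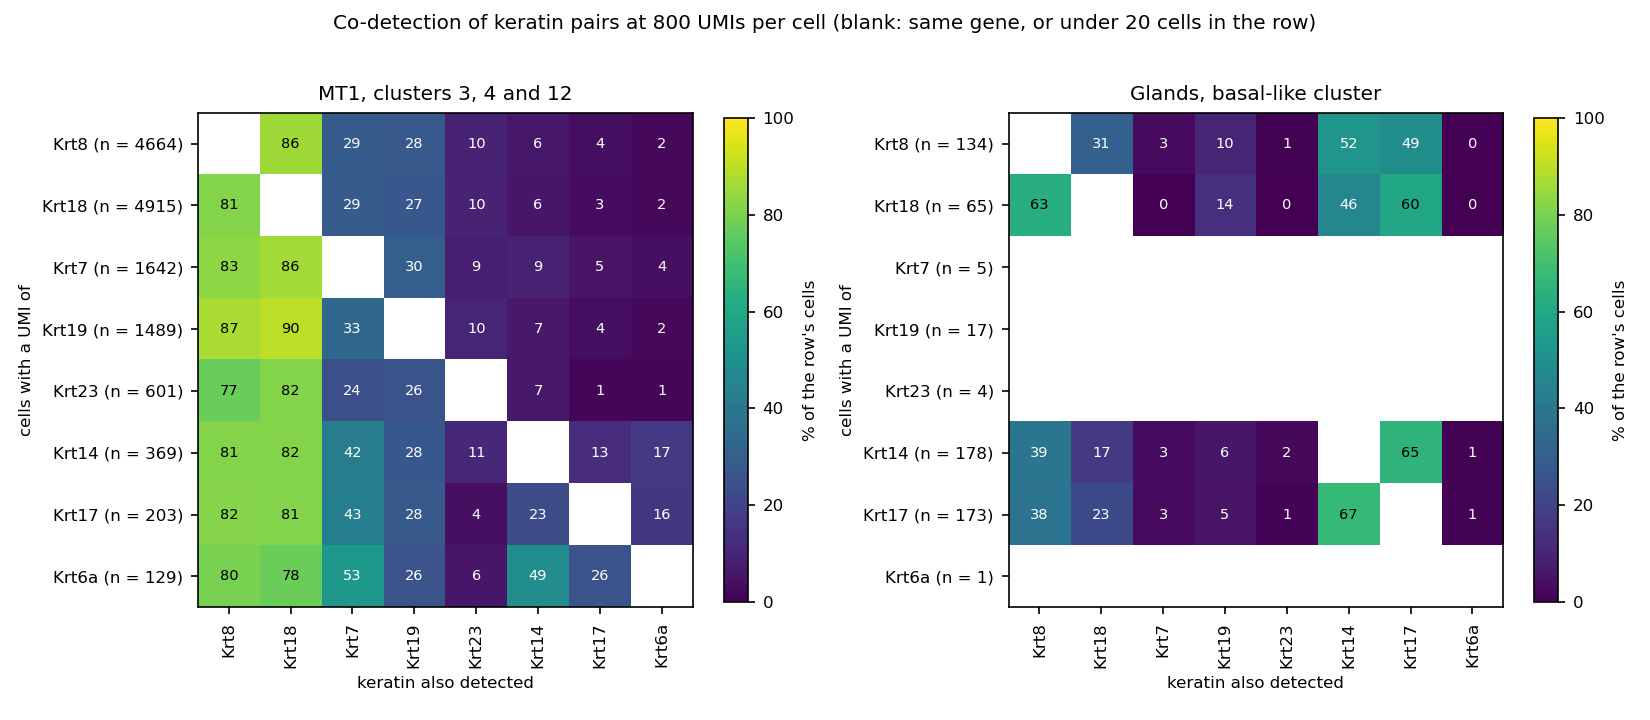
Percentage of the cells with the row keratin that also had the column keratin, at 800 UMIs per cell, in MT1 clusters 3, 4 and 12 (left) and in gland basal-like cells (right), with n the cells of the row. In the tumor the Krt6a row reaches 48.8% for Krt14, against 5.197% of the cells without Krt6a. The Krt8 column is high in every row of the tumor panel.

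Of the 6017 MT1 cells in clusters 3, 4 and 12, those with at least 2 UMIs of the basal or stratified set (unthinned, 45, 72, 194, 137 and 103 cells per library) were then described by genes that are no keratins, beside cells with none. All 551 of them also had a luminal keratin. The highest of the 5 keratins was Krt14 in 330 of these cells, Krt17 in 123, Krt6a in 81, Krt15 in 15 and Krt5 in 2. A keratinocyte list (5 of its 10 genes were in the table) was higher in these cells in 5 of 5 libraries, at 425, 399.5, 316, 322 and 330 CPM against 181, 270, 162, 196 and 155 CPM. The list was not particular to cells with these keratins. In the non-stromal cells of MT2, with Krt5, Krt15 and Krt6a at 0 UMIs, it was at 234 to 305 CPM (Lor and Calml3 at 0). The 8 basal markers were at 28.3, 46.2, 57.6, 70.5 and 102 CPM against 30.6, 29.1, 26.6, 27.1 and 26.3 CPM, higher in 4 of 5 libraries and far below their level of 469 to 587 CPM in whole gland libraries. The milk-lineage (luminal secretory) list was lower in 5 of 5 libraries, at 6737, 8928, 7410, 10462 and 6442 CPM against 9478, 10738, 7548, 11905 and 7309 CPM, by the least in MT1 replicate 3. The epithelial list ranged from 3529 to 4106 CPM against 3676 to 4128 CPM. A mesenchymal list was higher in 5 of 5 libraries, at 377, 442, 678, 640 and 576 CPM against 346, 339, 403, 367 and 368 CPM. The luminal hormone-sensing list was higher in 5 of 5, at 113 to 156 against 84.6 to 107 CPM, and the proliferation list was lower in 4 of 5, at 378 to 558 against 418 to 856 CPM. The genes that lead the interferon-response cluster 12 were higher in 5 of 5 as well, at 1123, 1274, 1134, 1333 and 1201 CPM against 557, 595, 552, 463 and 489 CPM, and in 4 of 5 with the cells of cluster 12 left out. Depth moved with this grouping, with a median of 2031 to 3498.5 UMIs per cell against 1752 to 2623, and the share of these cells among the highest 5% of doublet scores was 2.78% to 7.30% against 3.46% to 5.24%. The part of depth, doublets and these other lists in the values was not tested.

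The highest Krt6a level of any MT1 tumor cluster was in the small cluster 12 (88 cells, all from MT1), which was led by the interferon-response genes Mx1, Ifit1, Cxcl10, Ifit3 and Rsad2 and is unnamed. Krt6a was at 706 CPM there on pooled counts, Krt14 at 308 and Krt17 at 213, against 76.7, 180.2 and 40.5 CPM in cluster 3. Over the libraries Krt6a was at 297, 1637, 603, 115 and 634 CPM, in 8, 12, 33, 18 and 17 cells. The level came from few cells: 16 cells had a Krt6a UMI, 128 of the 179 UMIs lay in 3 cells and 53 in 1. Krt5 had 0 UMIs in this cluster and Krt8 was found in 83 of the 88 cells. A luminal and a basal or stratified keratin were found together in 22.7% of its cells (20 cells, 14.5% to 32.9%) at 800 UMIs.

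Outside the members, 5 of the 19 other keratins had at least 20 CPM in a group on pooled counts without TMM scaling. Krt8-ps, a Krt8 pseudogene, stayed below this on pooled counts and was at 15.8 and 31.1 CPM in the MG1 libraries with TMM scaling. Krt8-ps was called lower in both tumors (-2.34 and -4.05 on the log2 scale, edgeR adjusted p 3.39e-05 and 4.69e-08). Of the 470 words of 31 bases near the 3′ end of Krt8, 0 occurred in another gene. Whether Krt8 and Krt8-ps share reads outside these words was not tested. Krt16, the type I stress keratin that pairs with Krt6a, was at 14.6 and 15.5 CPM in MG1 and 32.6 to 72.2 CPM in MT1 (log2 fold change 1.76, SE 0.41, edgeR adjusted p 1.45e-03) and fell by 2.41 in mouse 2. It was found in 31.01% of the MT1 cells with Krt6a. Krt79 rose in mouse 1 from 7.49 and 1.73 CPM to between 31.2 and 58.4 CPM (log2 fold change 2.90, adjusted p 1.90e-05) and had 0 UMIs in MT2. Krt10, a keratin of differentiated epidermis, was higher in both tumors than in their glands (1.74 and 1.15 on the log2 scale), at 12.5 to 25.1 CPM in MT1 and 18.7 to 24.4 CPM in MT2. Krt78 fell by 4.37 in mouse 1 and had 0 UMIs in MT2. Krt4 was called lower in mouse 1 too (-3.40), but this rests on MG1 replicate 1 (45.8 CPM), since MG1 replicate 2 had 0 UMIs and the MT1 libraries 0.588 to 4.06 CPM, and it had 0 UMIs in MT2. Of the 11 other keratins tested, 6 were called higher and 4 lower in MT1 than in MG1, and 1 higher and 8 lower in MT2 than in MG2, where 32.2% and 27.1% of all genes in mouse 1 and 32.7% and 34.3% in mouse 2 were called higher and lower.

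The proteins that anchor keratin filaments at cell junctions moved with the members in mouse 2. Of 16 listed partners, 15 were lower in MT2 than in MG2 and 0 were higher, and 12 were lower and 2 higher in MT1 than in MG1. Over all genes tested, 34.3% were called lower and 32.7% higher in mouse 2, and 27.1% and 32.2% in mouse 1. The partners had medians of -3.23 in mouse 2 and -0.89 in mouse 1 on the log2 scale. Dsp (desmoplakin), which ties keratins to desmosomes, was at 297 and 377 CPM in MG1, 202 to 315 CPM in MT1, 258 and 299 CPM in MG2 and 2.20 to 2.52 CPM in MT2, with log2 fold changes of -0.44 (edgeR adjusted p 0.0331) and -6.85 (adjusted p 5.16e-14). Jup (plakoglobin) fell by 1.37 and 7.96, Pkp3 (plakophilin) by 0.85 and 6.93, Eppk1 (epiplakin) by 1.79 and 6.00 and the hemidesmosome integrin chain Itga6 by 0.57 and 5.28 in mouse 1 and mouse 2. Evpl (envoplakin) fell by 2.62 in mouse 1 and had 0 UMIs in MT2. The 2 partners that were higher in MT1 were Itgb4 (0.77) and Perp (1.49), and both fell in mouse 2 (by 4.06 and 2.41), named here after their values were seen.

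Of the other intermediate filaments, vimentin was higher in both tumors than in their glands. Vim, the mesenchymal filament vimentin, was at 132 and 155 CPM in MG1, 879 to 1977 in MT1, 180 and 303 in MG2 and 3855 to 4057 in MT2. It rose in both tumors (3.41 and 4.04 on the log2 scale, edgeR adjusted p 6.76e-08 and 2.26e-09), and no difference between the mice was called (-0.63, SE 0.37, adjusted p 0.182). Nes (nestin) rose in MT1 (1.77) and fell in MT2 (by 2.43), and Synm (synemin) fell in both (by 2.17 and 4.92). Of the nuclear lamins, Lmnb1 rose in both tumors (0.83 and 1.80), and Lmna fell in mouse 1 (by 0.74) and was not called in mouse 2 (-0.31, adjusted p 0.0926). Des (desmin) had 0 UMIs in MT1 and at most 5.18 CPM elsewhere and was not tested. Within MT1, cluster 5 was labelled Vim-high because its Vim was the highest among the unnamed MT1 clusters, so its Vim level is no separate result. On pooled counts Vim was at 7156 CPM in this cluster, where Krt8 was low, and at 95.3 and 146 CPM in the epithelial-like clusters 3 and 4.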

How the data were processed

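Drop-seq libraries (12, from 2 mice) were processed by the authors with the Drop-seq tools and the STAR aligner against GRCm38.p6, and the table deposited by the authors holds UMI counts by gene for each cell, as counted. Strand use and the treatment of reads shared by paralogs are not given in the sources used here. Each cell was assigned to its library from the library title in its name, with 0 unassigned columns. Libraries shared 0 to 7 cell barcodes, and replicate libraries of a group all differed beyond sampling noise. The keratins, the other lists and the tests were chosen with earlier results of these data known.

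Cells were log-normalized and clustered with scanpy 1.11.5 and leidenalg 0.10.2 (3000 variable genes with all 29 keratins kept out, 30 components, 20 neighbours, resolution 0.6). Clusters were named "X-like" where at least 70% of a lineage list (60% of the epithelial list) had a log2 fold of 1 (pseudocount 10 CPM), shares set after seeing the data. The rebuilt clusters are not those of the study. A doublet caller marked 50 cells (0.236%) and had not worked, so no cell was removed, and leaving out the highest 5% of scores was an alternative. For each library the UMIs of non-stromal cells were summed, and the sums were compared by the quasi-likelihood test of edgeR 4.0.16 (R 4.3.3, TMM, filterByExpr, all 4 groups in 1 fit, Benjamini-Hochberg adjusted p under 0.05 over 13654 genes). SEs are the absolute log2 fold change over the square root of F. CPM per library use TMM-scaled totals and CPM of marker lists and clusters plain totals, for clusters with at least 20 cells of a library (cluster 12 excepted). Where a group had 0 UMIs, folds were bounded by setting it to 3 counts over its TMM-scaled total and dividing the mean CPM of the other group by this. Co-expression was counted in cells thinned to 800 UMIs and compared by exact permutation tests over libraries. Genes named were the members, other keratins of at least 20 CPM in a group, up to 6 partners by the size of their change, and 6 other filaments. The scripts were tested on simulated data. Alternatives were DESeq2 1.42.0, RLE size factors, no filter, other cell sets and clusterings, other depths and leaving out each library. Gland and tumor of a mouse are paired by the mouse named in the labels. Library numbers follow accession order and pair nothing.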

Additional observations from a re-analysis of the deposited data

Results flagged for a closer look

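Krt15 in MT1 replicate 2, at 56.5 CPM, stood apart from the other 4 MT1 libraries (7.64 to 18.3 CPM), with a gap of 0.781 of the group's range, above the critical value of 0.71 for 5 samples. Chance gives such a value in about 1 in 20 groups.

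For each of the 10 members the change from gland to tumor differed between the mice by the edgeR test of the difference (MT1 against MG1 minus MT2 against MG2). On the log2 scale it was 5.56 for Krt14 (adjusted p 4.36e-11), 7.04 for Krt15 (1.70e-03), 5.90 for Krt17 (1.57e-08), 2.20 for Krt18 (3.30e-05), 8.06 for Krt19 (4.54e-12), 9.70 for Krt23 (9.23e-11), 6.72 for Krt5 (2.28e-04), 9.70 for Krt6a (1.30e-08), 6.96 for Krt7 (1.20e-11) and 2.28 for Krt8 (8.98e-07). The sizes for Krt5, Krt15 and Krt6a depend on the fit, since MT2 had 0 UMIs. With 1 mouse on each side, mouse, tumor and library preparation cannot be told apart.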

How the results depend on the processing

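Of 929 values of single keratins under 29 other settings, 894 kept their direction and their side of the threshold, 23 lost a call, 1 gained one and 11 changed direction. No call of the difference between the mice or of MT1 against MT2 changed under any of them. The log2 fold change of Krt7, MT1 against MG1 (not called), was -0.041 with RLE size factors, -0.021 by DESeq2, -0.00047 in a fit of MT1 and MG1 alone and -0.089 without the basal-like cluster. The log2 fold change of Krt18, MT1 against MG1 (not called), was 0.083 with all cells, 0.10 without the Vim-high cluster and -0.51 to 0.52 with single libraries left out. Without the basal-like cluster Krt14 was 1.24 and Krt17 0.87, and 3 members were called higher. Leaving out single libraries gave 5 to 6 lower calls. The log2 fold change of Krt6a, MT1 against MG1, lost its call with no filter (adjusted p 0.114), with all cells (0.253) and without the Vim-high cluster (0.309). The settings that leave out these clusters were chosen after seeing the data. The cause of these changes was not tested. RLE size factors moved the median of all genes by -0.11 in MT1 against MG1 and by -0.15 in the difference between the mice. With the mouse as replicate and as block, 1 contrast of tumor against gland over both mice stands in for the separate comparisons, and 0 members were called lower and 0 higher, with Krt7 at -3.26 and Krt23 at -0.85. No block by library number was made because the numbers follow accession order. The differences in co-expression share kept their sign in every alternative. With so few libraries none could pass 0.05 after adjustment, so the adjusted p-values say nothing about the alternatives. Depth limits the low keratins: 3 counts are 0.0762 CPM over MT2 but 5.75 CPM in MG1 replicate 2.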

Other observations

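The genes whose pooled level over the 12 clusters was most like that of a keratin were listed by Pearson's r of log2(CPM + 10) among 6138 genes, as a description over points that share libraries. For Krt8 they were Stard10 (0.97), Tnk2 (0.97) and Kcnk1 (0.96). For Krt14 they were Ints13 (0.96), Riok1 (0.95) and Marcksl1 (0.94). For Krt6a they were Plekhs1 (0.95), Zufsp (0.94) and Ildr1 (0.93). For Krt23 they were Pdlim4 (0.92), Nkd2 (0.91) and Gm26735 (0.90).

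Keratins near or at 0 in both glands were found in MT1. Krt25 had 327 UMIs in MT1 and 1, 2 and 0 in MG1, MG2 and MT2, Krt27 had 152 UMIs in MT1 and Krt6b 172 UMIs in MT1, with 0 in the other 3 groups. These are keratins of hair follicles and stratified epithelium and lay under the level set for naming, and they were singled out after their values were seen.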
